A study of Mus musculus with 12 samples.

Results

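T cells switch on a small set of transcription factor genes within minutes of receptor engagement. Of these, 8 were followed through early iNKT development: Egr1, Egr2 and Egr3 (early growth response genes), Nr4a1, Nr4a2 and Nr4a3 (orphan nuclear receptor genes), and the AP-1 genes Fos and Junb. They were chosen by symbol, and all 8 of 8 were found among the 48672 genes counted and among the 15704 that passed the filter on low counts. The RNA came from iNKT (invariant natural killer T) cells of C57Bl/6J mice aged 4 to 5 weeks. These T cells carry a semi-invariant receptor for lipids presented by CD1d, and the series asks what the repressor BCL6 does in their early development. Thymocytes binding the tetramer and positive for TCRb were sorted as stage 0 (ST0; CD24+ CD44-) or stage 1 (ST1; CD24- CD44-). The donors were untreated WT mice or CDCre;Bcl6F/F mice (Bcl6KO), which combine a Cre transgene with floxed Bcl6. Each sort pooled the thymi of 4 to 7 animals. The 12 libraries form 4 groups of 3 (WT ST0, WT ST1, Bcl6KO ST0 and Bcl6KO ST1), with totals from 4129919 to 8038717 counts. Whether libraries of 1 group were prepared from different pools is not in the labels. The p-values therefore measure spread between libraries, and that spread may be technical in part.

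Receptor engagement reaches these genes through pre-existing factors, so they need no new protein to be transcribed. The Ras-MAP kinase branch acts on serum response factor (SRF) and its partners, while calcium acts on NFAT, MEF2 and CREB family factors. EGR proteins are zinc finger activators that bind GC-rich sites and are restrained by the NAB corepressors, and EGR2 is needed for iNKT development, where it acts on Zbtb16. NR4A proteins are nuclear receptors that act without a known hormone; Nr4a1 (NUR77) is widely used to report receptor signals in thymocytes. FOS and JUNB pair as AP-1, and Fos transcripts are among the shortest-lived of the group. iNKT cells are selected by lipid presented on double-positive thymocytes, and stage 0 is the earliest stage after that selection.

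Promoter sequence is shown for Egr2, Nr4a1 and Nr4a2, which fell from stage 0 to stage 1, and for Nr4a3, which did not pass, so that the 3 Nr4a genes can be set side by side. RefSeq windows of 250 bases before a transcript start (GRCm38.p6, the build of the counts) were matched for 6 of the 8 genes. Both strands were searched for TGACG, the core of the CREB site (read as CGTCA on the other strand), for the CArG box that SRF binds and for the MEF2 site. Matches are in capitals, and each sequence reads 5′ to 3′ on the strand of the gene. The Egr2 window (chr10:67537619-67537868, plus strand) is the one of 5 listed for that gene that holds TGACG without any exonic base. Those at chr10:67535249-67535498 and chr10:67537316-67537565 held no TGACG, and the latter held a CArG box. The rest overlap the window shown. Those of Nr4a1 (chr15:101266596-101266845, plus strand; inside the gene, before a downstream start) and Nr4a2 (chr2:57124004-57124253, minus strand) also hold no exonic base. For Nr4a3 the 98 bases before the annotated exon are shown (chr4:48045055-48045152, plus strand).
Egr2: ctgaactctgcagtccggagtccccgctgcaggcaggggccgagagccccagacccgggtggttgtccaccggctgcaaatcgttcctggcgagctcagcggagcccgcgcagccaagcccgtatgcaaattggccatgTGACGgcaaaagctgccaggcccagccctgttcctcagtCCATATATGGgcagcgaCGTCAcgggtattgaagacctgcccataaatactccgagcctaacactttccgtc
Nr4a1: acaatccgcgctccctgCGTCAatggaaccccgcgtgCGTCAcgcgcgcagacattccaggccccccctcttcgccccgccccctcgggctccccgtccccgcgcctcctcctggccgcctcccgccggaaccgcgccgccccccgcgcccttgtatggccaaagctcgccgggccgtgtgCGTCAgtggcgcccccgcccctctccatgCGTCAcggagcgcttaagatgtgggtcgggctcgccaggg
Nr4a2: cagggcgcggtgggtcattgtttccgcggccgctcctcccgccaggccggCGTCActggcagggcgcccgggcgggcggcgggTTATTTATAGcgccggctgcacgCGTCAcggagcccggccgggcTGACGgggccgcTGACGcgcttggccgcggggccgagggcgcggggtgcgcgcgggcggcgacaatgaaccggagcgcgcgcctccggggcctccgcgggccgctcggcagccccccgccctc
Nr4a3: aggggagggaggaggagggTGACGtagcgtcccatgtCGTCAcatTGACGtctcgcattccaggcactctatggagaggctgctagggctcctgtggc

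All 3 Nr4a windows held TGACG 4 times, a number reached by 0.137% of the 32851 promoter windows in the table, whereas 17.8% held it at least once. In Nr4a1 the matches began 233, 213, 69 and 40 bases before the start, in Nr4a2 200, 144, 123 and 111, and in Nr4a3 231, 213, 205 and 147, the last of which lies in the exonic stretch. The Egr2 window, picked for holding TGACG, had it at 111 and 55 bases before the start. Between them lay a CArG box at 72, an element found in 1.47% of windows. The Nr4a2 window also held a MEF2 site (2.92% of windows). By comparison the Fos window held TGACG 2 times and the Junb window once, and neither held a CArG box or a MEF2 site within 250 bases. No Nr4a window held a CArG box. The full palindrome TGACGTCA (1.55% of windows), which contains TGACG on both strands, was in none of the 6 genes' windows. GCGNGGGCG, the GC-rich EGR site, matched once each in Nr4a1 and Nr4a2 (4.70% of windows); the NR4A site AAAGGTCA (1.34%) and the AP-1 site TGANTCA (6.75%) matched in none. These matches describe letters in a window and say nothing of which factor was bound.

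Library facts that touch the comparisons were as follows. Genes detected ranged from 14860 to 17734 in Bcl6KO ST0 and from 18417 to 22028 in the other groups. Sp100, a nuclear body gene, took 10.8% to 23.9% of counts in Bcl6KO ST0 and at most 5.03% elsewhere. Cd24a, the sort marker, stood at 149 to 313 CPM (counts relative to library size after TMM scaling) in ST0 and at 0.790 to 13.7 in ST1. Cd44 stayed at or below 26.9 CPM, and the summed level of 8 iNKT and receptor genes lay between 3099 and 5337 CPM in every library. Bcl6 read 217 to 373 CPM in WT ST0 and 511 to 657 in the libraries labelled Bcl6KO ST0. At stage 1 it read 4.15 to 8.77 CPM in WT and 14.7 to 56.0 in Bcl6KO. The count spans the whole gene and does not check the deletion. Summed markers of other cells stayed at or below 88.2 CPM for myeloid, 171 for B, 23.4 for erythroid, 80.5 for thymic epithelial and 51.8 for fibroblast cells. Markers that differed with stage are given beside the stage results.

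Egr1, Egr2, Nr4a1 and Nr4a2 all fell from stage 0 to stage 1. With the genotypes averaged, edgeR's quasi-likelihood test called 4 of the 8 genes lower, against a background of 1.42% of all genes tested, and 0 of 8 higher, against 2.04% (Benjamini-Hochberg adjusted p under 0.05; 0 of 8 had an unadjusted p under 0.05 in that direction; DESeq2 called 5 of 8, all lower). Nr4a3 came close to the threshold, while Egr3 and Junb gave no call and Fos was barely detected. The members' levels by library are shown in the plot that follows.

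**Figure D1:**
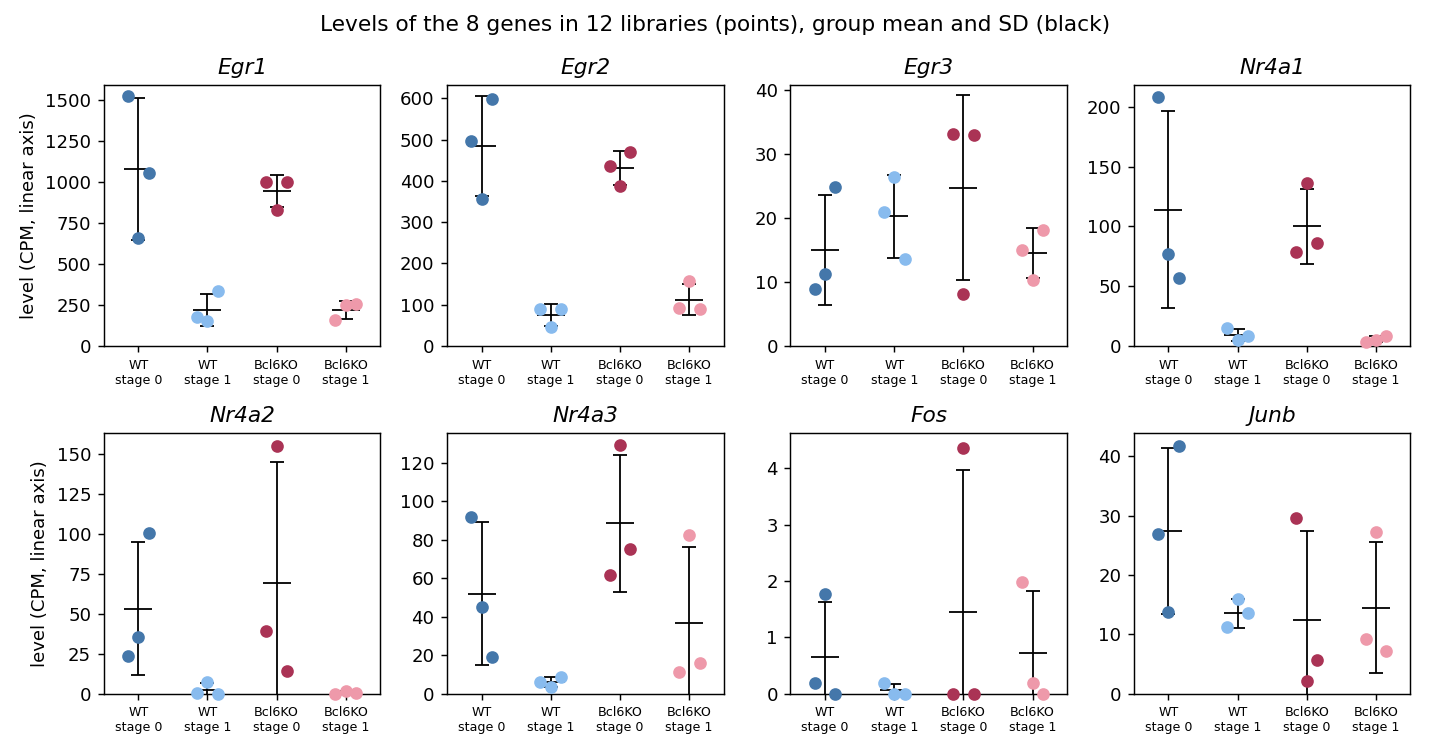
Level of each gene (CPM, linear axis with its own scale per gene) in the 4 groups; each point is 1 library, and black marks are the group mean and SD of 3 libraries, with SD bars ending at 0. Egr1, Egr2, Nr4a1 and Nr4a2 are lower in all 3 stage 1 libraries than in all 3 stage 0 libraries of the same genotype, while Egr3, Fos and Junb show no such split.

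Egr1 (ENSMUSG00000038418, chromosome 18, 34859823 to 34864984, plus strand of mm10), the founding zinc finger factor of the family, was the most abundant of the 8. Its level was 1522, 662 and 1054 CPM in the WT ST0 libraries and 179, 153 and 333 CPM in WT ST1. In Bcl6KO it read 1001, 829 and 1002 CPM at ST0 and 156, 253 and 254 CPM at ST1. Every stage 0 library lay above every stage 1 library in both genotypes. The fall was 4.87-fold in WT (log2 fold change -2.28, SE 0.36, edgeR adjusted p = 0.0147) and 4.27-fold in Bcl6KO (-2.10, SE 0.36, adjusted p = 0.0253). Averaged over genotypes it was -2.19 (SE 0.26, edgeR adjusted p = 6.47e-04) and passed in 21 of 21 alternatives. By level the groups ran from WT ST0 (1079 ± 431 CPM, SD, n = 3) over Bcl6KO ST0 (944 ± 99.3) to WT ST1 (222 ± 97.1) and Bcl6KO ST1 (221 ± 56.3). Libraries of the genotypes overlapped within each stage.

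Egr2 (ENSMUSG00000037868, chromosome 10, 67535475 to 67542188, plus strand), the member tied most closely to iNKT development, stood at 496, 357 and 598 CPM in WT ST0. It stood at 90.1, 45.0 and 90.2 CPM in WT ST1. The Bcl6KO libraries read 437, 388 and 469 CPM at ST0 and 91.0, 157 and 89.8 CPM at ST1. Stages did not overlap in either genotype, and 1 Bcl6KO ST1 library (replicate 2) stood above all other stage 1 libraries. Egr2 fell 6.44-fold in WT (log2 -2.69, SE 0.35, edgeR adjusted p = 0.00343), a call held in 22 of 22 alternatives. The fall in Bcl6KO was 3.83-fold (-1.94, SE 0.34, edgeR adjusted p = 0.0278), and that over both genotypes -2.31 (SE 0.25, adjusted p = 2.89e-04; 21 of 21 alternatives). The order was WT ST0 (484 ± 121 CPM), Bcl6KO ST0 (431 ± 40.9), Bcl6KO ST1 (113 ± 38.3) and WT ST1 (75.1 ± 26.1), and libraries of the genotypes overlapped within each stage.

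Egr3 (ENSMUSG00000033730, chromosome 14, 70077203 to 70082614, plus strand), a close relative induced by NFAT, did not follow. It read 8.94, 11.2 and 24.8 CPM in WT ST0 and 20.9, 26.5 and 13.5 CPM in WT ST1. Its Bcl6KO levels were 33.1, 8.15 and 33.1 CPM at ST0 and 15.1, 10.3 and 18.2 CPM at ST1. All 4 groups overlapped. The stage difference was 0.44 on the log2 scale in WT (SE 0.74, edgeR adjusted p = 0.950) and -0.77 in Bcl6KO (SE 0.75, adjusted p = 0.662). Egr1 and Egr2 exceeded it by far per exonic length, at 241 ± 96.1 and 142 ± 35.6 CPM per kilobase in WT ST0 against 3.40 ± 1.95 for Egr3.

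Nr4a1 (ENSMUSG00000023034, chromosome 15, 101254269 to 101274795, plus strand), the NUR77 receptor, fell more steeply. It stood at 208, 77.2 and 56.9 CPM in WT ST0 and at 15.1, 4.94 and 8.20 CPM in WT ST1. The Bcl6KO values were 78.7, 136 and 85.8 CPM at ST0 and 3.18, 5.37 and 8.19 CPM at ST1. No stage 1 library came near a stage 0 library in either genotype. The fall was 12.1-fold in WT (log2 -3.59, SE 0.66, edgeR adjusted p = 0.0350) and 17.9-fold in Bcl6KO (-4.16, SE 0.68, adjusted p = 0.0218). Over both genotypes it was -3.88 (SE 0.47, edgeR adjusted p = 8.04e-04) and passed in 21 of 21 alternatives. The order was WT ST0 (114 ± 82.0 CPM), Bcl6KO ST0 (100.2 ± 31.3), WT ST1 (9.43 ± 5.21) and Bcl6KO ST1 (5.58 ± 2.51). Within each stage the libraries of the genotypes overlapped.

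Nr4a2 (ENSMUSG00000026826, chromosome 2, 57106830 to 57124003, minus strand), the NURR1 receptor, was nearly lost at stage 1. It read 23.5, 35.6 and 101 CPM in WT ST0 and 0.199, 7.31 and 0 CPM in WT ST1. In Bcl6KO it read 39.1, 155 and 14.2 CPM at ST0 and 0, 1.79 and 0.200 CPM at ST1. Where no count was seen, counting error alone leaves room for a level of up to 3 counts, which is 0.569 to 0.615 CPM. The groups did not overlap in either genotype, but the libraries of a group spread widely: the SD was 77.9% of the mean in WT ST0 and 108% in Bcl6KO ST0. The fall passed over both genotypes (log2 -5.53, SE 1.18, edgeR adjusted p = 0.0238) and in neither alone (-4.39, SE 1.56, adjusted p = 0.405 in WT; -6.66, SE 1.77, adjusted p = 0.0969 in Bcl6KO). It was lost in 6 of 21 alternatives: with the Sp100 share as a covariate (adjusted p = 0.151), and without WT ST0 replicate 3 (adjusted p = 0.0601), WT ST1 replicate 1 (0.0655) or 3 (0.0509), and Bcl6KO ST1 replicate 1 (0.0645) or 3 (0.0681). With 1 library left out its log2 fold change ran from -4.85 to -7.69 over both genotypes, from -3.55 to -8.73 in WT and from -5.28 to -9.13 in Bcl6KO.

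Nr4a3 (ENSMUSG00000028341, chromosome 4, 48045153 to 48086447, plus strand), the NOR1 receptor, was lower in all WT ST1 libraries than in all WT ST0 libraries and overlapped between stages in Bcl6KO. It read 92.0, 45.3 and 18.9 CPM in WT ST0 and 6.18, 3.55 and 8.61 CPM in WT ST1. The Bcl6KO libraries read 61.7, 129 and 75.4 CPM at ST0 and 11.3, 82.5 and 16.0 CPM at ST1. Replicate 2 of Bcl6KO ST1, at 82.5 CPM, lay inside the stage 0 range, and the other two lay below it. The stage difference was -3.09 in WT (SE 0.84, edgeR adjusted p = 0.204), -1.28 in Bcl6KO (SE 0.78, adjusted p = 0.456) and -2.18 over both (SE 0.57, adjusted p = 0.0547). Without Bcl6KO ST1 replicate 2 the last became -2.89 and passed (adjusted p = 0.0191), as it did without Bcl6KO ST0 replicate 1 (-2.28, adjusted p = 0.0486), with DESeq2 and without the low-count filter.

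The AP-1 genes were low in every group. Fos (ENSMUSG00000021250, chromosome 12, 85473890 to 85477273, plus strand), the prototype immediate-early gene, had 0 counts in 6 of the 12 libraries, 1 count in 3, and 9, 10 and 23 counts in the remaining libraries, so no fold is given. These 3 libraries were WT ST0 replicate 2, Bcl6KO ST1 replicate 1 and Bcl6KO ST0 replicate 2, the highest at 4.36 CPM. Junb (ENSMUSG00000052837, chromosome 8, 84974484 to 84978718, minus strand), its partner, read 26.8, 13.8 and 41.7 CPM in WT ST0 and 11.2, 16.0 and 13.5 CPM in WT ST1. In Bcl6KO Junb read 29.5, 2.09 and 5.71 CPM at ST0 and 9.14, 27.2 and 7.19 CPM at ST1. Its groups overlapped, and the stage difference was -1.02 in WT (SE 0.95, edgeR adjusted p = 0.893) and 0.22 in Bcl6KO (SE 0.94, adjusted p = 0.937). Prdx2, on the opposite strand, covers 7.52% of the exonic bases of Junb; reads of both cannot be told apart if counting ignored strand, which the sources used here do not give.

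Within each genotype alone, 3 of 8 members passed as lower at stage 1: Egr1, Egr2 and Nr4a1, against 0.363% of all genes in WT and 0.255% in Bcl6KO. Libraries of the stages did not overlap for 5 of 8 members in WT (Egr1, Egr2 and the 3 Nr4a genes; background 9.06%) and for 4 of 8 in Bcl6KO (the same without Nr4a3; background 5.76%). Most of these calls were lost when 1 library was left out. In WT, Egr1 was lost without ST0 replicate 1 (adjusted p = 0.0655) or 3 (0.0556) and without ST1 replicate 1 (0.105) or 2 (0.0909). Nr4a1 in WT was lost without ST0 replicate 1 (0.144), ST1 replicate 1 (0.0882), 2 (0.173) or 3 (0.196), and Bcl6KO ST1 replicate 2 (0.0540). In Bcl6KO all 3 calls were lost without ST1 replicate 1 (0.0948 to 0.111) or 3 (0.0649 to 0.124). Without ST1 replicate 2, Egr1 (0.0826) and Nr4a1 (0.0870) were lost, and without ST0 replicate 3 Egr1 (0.0574) and Egr2 (0.0626). The log2 fold changes kept their sign throughout, between -1.47 and -4.54 over all alternatives of these 6 calls.

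The stage difference of the members ran beside one of double-positive thymocyte markers. The summed level of 9 such genes, among them Rag1, Rag2, Dntt, Cd8a and Arpp21, was 547, 1700 and 1071 CPM in WT ST0 and 204 to 591 CPM in WT ST1. It was 1381 to 1441 CPM in Bcl6KO ST0 and 446 to 973 CPM in Bcl6KO ST1. WT ST0 replicate 1, at 547 CPM, lay within the WT ST1 range, so the sums of the stages overlapped in WT. Of the 9, 6 fell over both genotypes (median log2 fold change -6.27, against 0.03 for all genes), and Rag2 had no count in WT ST1. By sign alone 8 of the 9 were lower and 1 was higher. DESeq2 called 7, with Ptcra and Cd4 not among them. Of the other cell markers tested, 1 of 4 B cell genes fell: Pax5, a B lineage factor, went from 17.0 ± 15.4 to 0.333 ± 0.229 CPM in WT and from 39.6 ± 20.9 to 3.25 ± 1.72 in Bcl6KO (log2 -4.58, SE 0.95, edgeR adjusted p = 0.0209; list median -2.50). Neither of 2 thymic epithelial genes passed edgeR's test (list median -2.65), though DESeq2 called Epcam, an epithelial adhesion gene (-4.92, SE 1.59 and adjusted p = 0.114 by edgeR). None of 5 myeloid genes and 1 erythroid gene passed. The markers' part in the stage difference was not tested. In bulk RNA, fewer cells of a kind and less RNA per cell cannot be told apart.

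Between genotypes no member was called. At stage 0 edgeR called 0 of 8 members, against 0.0191% of all genes, and 0 of 8 had an unadjusted p under 0.05. Of all genes 2309 had such a p there, and DESeq2 called 950 genes and no member. At stage 1 it called 0 of 8, against 0% of all genes (404 genes, Nr4a3 among them, had an unadjusted p under 0.05, and DESeq2 called 20 genes and no member). With the stages averaged it called 0 of 8, against 0.00637%. There 1714 genes, Nr4a3 among them (edgeR unadjusted p = 0.0105), had an unadjusted p under 0.05. DESeq2 called 450 genes and no member. The test of whether the genotype effect differed between the stages called 0 of 8, against 0% of all genes (1221 with an unadjusted p under 0.05, 130 by DESeq2, no member in either). On the log2 scale, Bcl6KO against WT gave -0.19 (SE 0.35) at stage 0 and -0.0046 (SE 0.35) at stage 1 for Egr1, and -0.16 (SE 0.33) and 0.58 (SE 0.33) for Egr2. SEs were larger for the Nr4a genes, 0.59 to 1.34 at stage 0 and 0.62 to 1.54 at stage 1, and a missed threshold does not show that levels were alike.

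**Figure D2:**
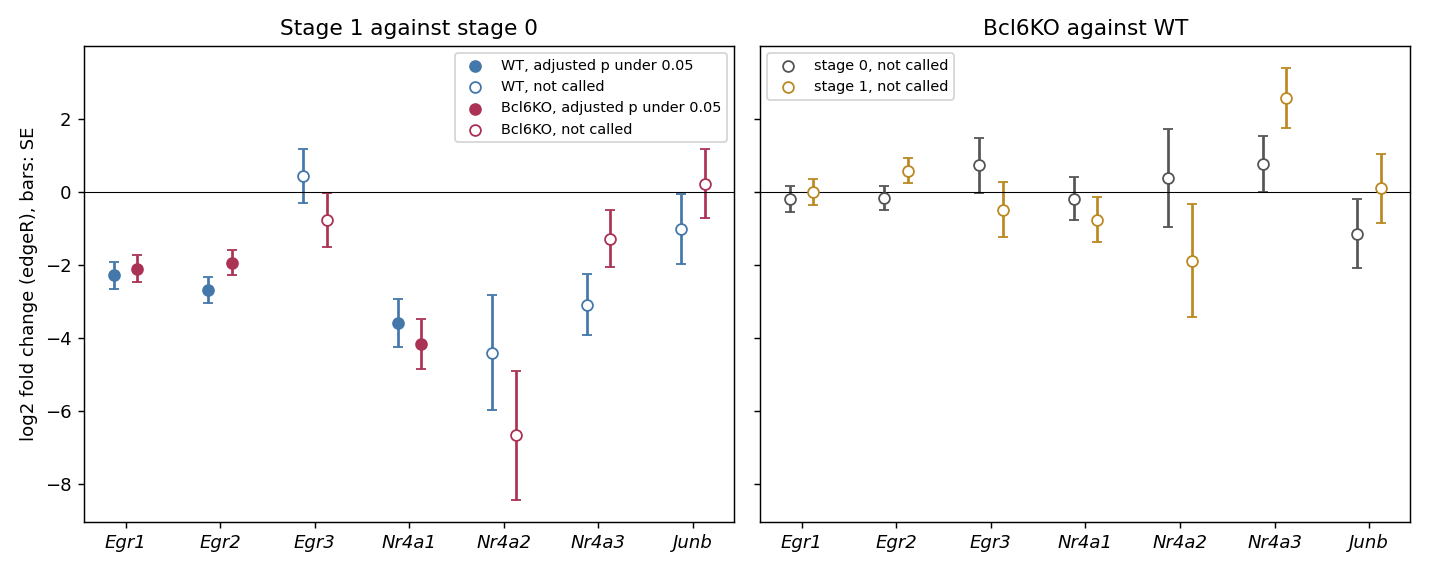
Fold change (log2, edgeR) of 7 genes, Fos left out, between stages in each genotype (left) and between genotypes at each stage (right); bars are SE and filled points have an adjusted p under 0.05. Only Egr1, Egr2 and Nr4a1 are filled, in both genotypes on the left, and the widest genotype difference on the right is that of Nr4a3 at stage 1 (2.58).

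Nr4a3 was the member whose genotypes stood apart at stage 1. Its 11.3, 82.5 and 16.0 CPM in Bcl6KO ST1 all lay above the 3.55 to 8.61 CPM of WT ST1. Such a split held for 1 of 8 members, against a background of 5.87% of genes higher. Apart and lower were 0 of 8, against 7.44%. With both directions counted, 1 of 8 is close to the share of all genes, so the split is given as values only. The difference was 2.58 on the log2 scale (SE 0.82, edgeR adjusted p = 1) and 1.16 without Bcl6KO ST1 replicate 2. At stage 0 it was 0.77 (SE 0.77, edgeR adjusted p = 0.700) with overlapping libraries, and over both stages 1.67 (SE 0.56, adjusted p = 0.294). The test of the difference between stages gave 1.81 (SE 1.10, edgeR adjusted p = 0.746). The other Nr4a genes read the opposite way at stage 1, -0.76 (SE 0.62) for Nr4a1 and -1.88 (SE 1.54) for Nr4a2, with overlapping libraries.

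The make-up of the Nr4a family stood apart in Bcl6KO ST1. Summed per exonic kilobase, the 3 Nr4a genes stood at 54.3 ± 22.8 CPM per kilobase in WT ST0, 60.5 ± 33.0 in Bcl6KO ST0, 4.32 ± 0.929 in WT ST1 and 7.86 ± 6.92 in Bcl6KO ST1. Nr4a3 made up 67.6%, 87.5% and 52.8% of that sum in the Bcl6KO ST1 libraries and 7.15% to 38.1% in the other 9 libraries, with no overlap. The Bcl6KO ST1 shares rest on few counts of Nr4a1 (16, 27 and 41) and Nr4a2 (0, 9 and 1). Those of WT ST1 also rest on few counts of Nr4a1 (76, 25 and 40), Nr4a2 (1, 37 and 0) and Nr4a3 (31, 18 and 42). In Bcl6KO ST1 replicate 1 the sum was 2.80 CPM per kilobase, below the 3.78 to 5.40 of WT ST1. In part the shares restate the Nr4a3 levels of the same libraries. In WT ST1 Nr4a1 held the largest mean share (59.6% ± 21.6), as it did in both stage 0 groups (55.9% ± 18.5 in WT and 50.9% ± 10.6 in Bcl6KO). The Nr4a3 share was noticed after its values were seen, so it is given as a description with no test. The Egr family showed no such shift: its sum fell from 386 ± 119 to 76.2 ± 25.6 CPM per kilobase in WT and from 343 ± 36.8 to 85.7 ± 20.0 in Bcl6KO. Egr1 held 53.5% to 71.5% of it in every library. The share of Egr3, whose own level did not pass the test, was 0.417% to 2.09% at stage 0 and 2.24% to 11.2% at stage 1.

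**Figure D3:**
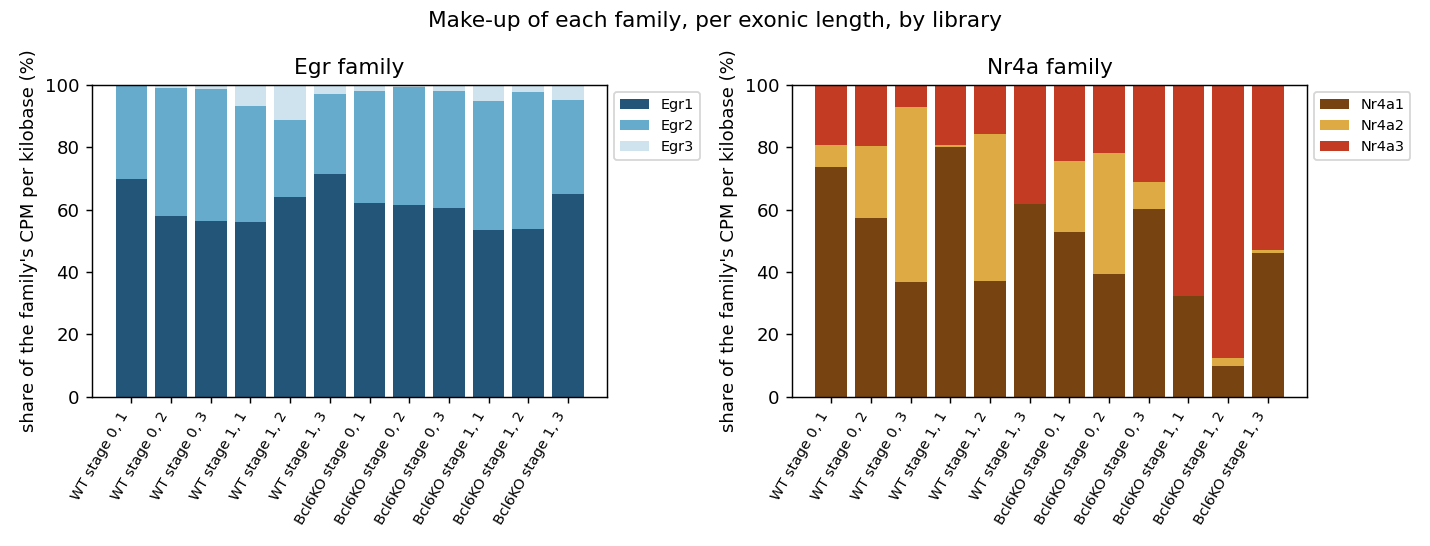
Share of each gene in its family's summed level per exonic kilobase (%, stacked to 100), for the Egr genes (left) and the Nr4a genes (right) in each of the 12 libraries. Nr4a3 takes 52.8% to 87.5% in the 3 Bcl6KO ST1 libraries and at most 38.1% elsewhere; the Egr panel is mostly Egr1 and Egr2 throughout.

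Genes around the members were taken from lists, and counts are for stage 1 against stage 0 averaged over genotypes by edgeR with Benjamini-Hochberg adjustment, to be read against 2.04% of all genes higher and 1.42% lower. Among partners of the members, 1 of 4 tested rose: Rxra, which encodes a retinoid receptor that pairs with NR4A proteins, went from 10.2 ± 13.2 to 114 ± 22.2 CPM in WT and from 4.94 ± 5.47 to 101 ± 29.4 in Bcl6KO (log2 3.92, SE 0.71, adjusted p = 0.0105). In either direction, 3 of these 4 had an edgeR unadjusted p under 0.05, and DESeq2 called Nab1, Nab2 and Rxra. Of 7 other AP-1 genes tested none passed (0 with an unadjusted p under 0.05, 0 by DESeq2); Mafk, the highest of them, read 48.9 ± 23.7 CPM in WT ST0 and 28.3 ± 8.77 in WT ST1, and 14.97 ± 10.9 and 21.6 ± 12.5 CPM in Bcl6KO ST0 and ST1. Of 23 other immediate-early genes none passed (7 unadjusted; 4 by DESeq2, Ier2, Klf10, Sik1 and Arc). Zfp36l1, an mRNA decay factor and the highest of these, gave -0.71 (SE 0.36, edgeR adjusted p = 0.321); 55.9% of its exonic bases lie under another gene. The median of that list was 0.15 against 0.03 for all genes.

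Upstream, 2 of 20 SRF and Ras-MAP kinase genes fell (in either direction, 7 unadjusted and 4 by DESeq2). Rasgrp1, the exchange factor that activates Ras after receptor engagement, went from 1336 ± 309 to 162 ± 27.4 CPM in WT and from 836 ± 218 to 268 ± 92.5 in Bcl6KO (log2 -2.34, SE 0.22, edgeR adjusted p = 1.33e-04), and Braf, a kinase of the cascade, gave -1.05 (adjusted p = 0.0438). Of 17 calcium, NFAT, MEF2 and CREB genes 2 fell, Camk4, a calmodulin kinase that acts on CREB (-0.91, SE 0.15, adjusted p = 0.00593), and Nfatc1 (-0.995, SE 0.21, adjusted p = 0.0226). In either direction, 11 of these 17 had an edgeR unadjusted p under 0.05, and DESeq2 called 6. Of 11 phosphatases and feedback inhibitors none passed (0 unadjusted, 0 by DESeq2); the highest, Spred2, gave 0.41 (SE 0.45, adjusted p = 0.708). Of 10 heat shock genes none passed (3 unadjusted, 2 by DESeq2), with Hsp90ab1 at -0.09 (SE 0.17, edgeR adjusted p = 0.840). Those called by DESeq2 were Hspa1a and Hspa1b, near-identical stress-induced chaperone genes between which reads may be split. Hspa1a read 30.2, 31.5 and 0.787 CPM in WT ST0 and 0.987 to 4.38 in WT ST1, and 0.200, 17.3 and 60.6 CPM in Bcl6KO ST0 and 0.397 to 7.19 in Bcl6KO ST1 (-3.06, SE 1.17, edgeR adjusted p = 0.182). Hspa1b gave -2.91 (SE 1.15, edgeR adjusted p = 0.193). In each genotype 1 stage 0 library lay within or below the stage 1 range, and the part of this difference in that of the members was not tested.

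Downstream, 12 genes known as EGR or NR4A targets in T cells were tested; 5 fell and 3 rose. The fallen were Dgkz (-1.47, SE 0.20, edgeR adjusted p = 0.00194) and Dgka, both kinases that remove diacylglycerol, Tox, a nuclear factor of selected thymocytes (1101 ± 251 to 350 ± 87.97 CPM in WT; -1.33, adjusted p = 0.00195), Cblb and Bcl2l11. The risen were Zbtb16, which encodes the iNKT factor PLZF (166 ± 60.9 to 544 ± 120 CPM in WT; 2.26, SE 0.43, adjusted p = 0.0133), Tob1, an antiproliferative factor (1.57, SE 0.36, adjusted p = 0.0310), and Fasl. The list's median was -0.82. Of 11 surface genes induced by receptor signals 6 fell and 1 rose (median -1.09). Itm2a, a membrane protein raised during selection, went from 452 ± 93.0 to 7.88 ± 1.99 CPM in WT and from 665 ± 324 to 58.0 ± 26.3 in Bcl6KO (-4.68, SE 0.34, adjusted p = 3.55e-05). Cd27, a costimulatory receptor, gave -1.56 (adjusted p = 0.00195), and Cd69, Cd5, Cd28 and Tnfsf8 also fell, whereas Icos, the inducible costimulator, rose (2.27, SE 0.24, adjusted p = 2.58e-04).

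**Figure D4:**
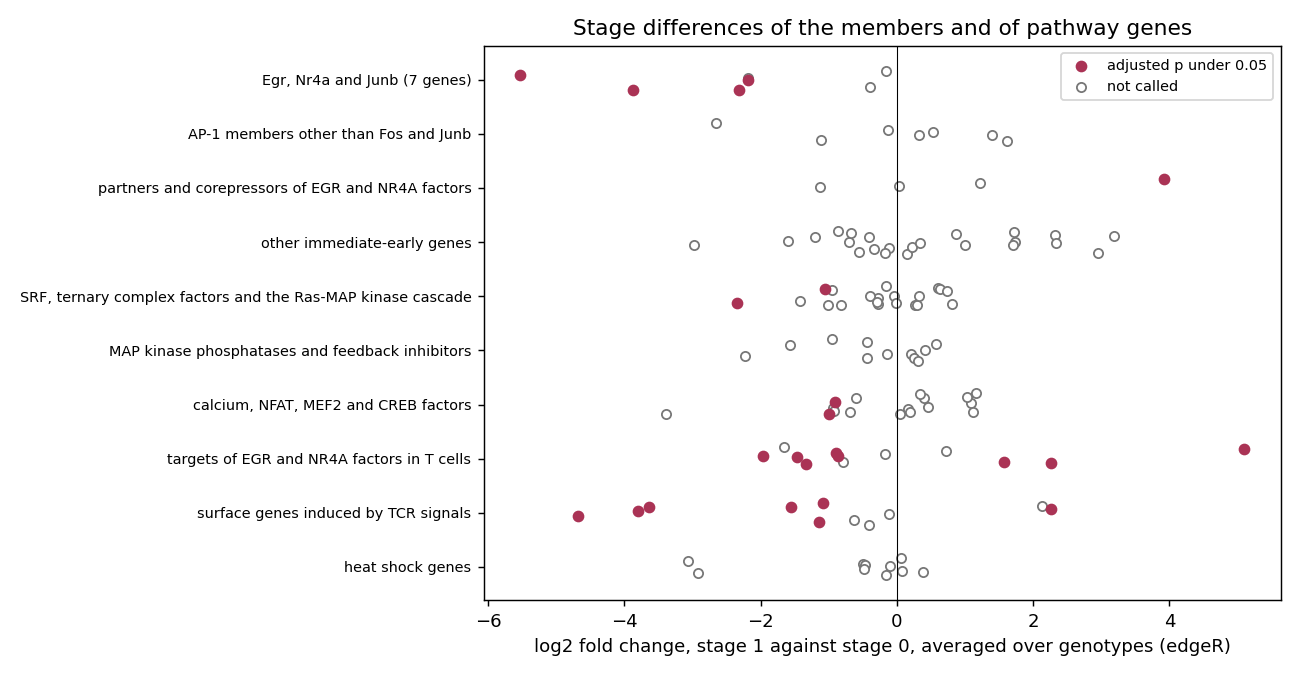
Fold change from stage 0 to stage 1 (log2, edgeR, averaged over genotypes) of 7 of the members (top row, Fos left out) and of tested genes in 9 lists; each point is a gene and filled points have an adjusted p under 0.05. Calls are most frequent in the rows of known targets (3 rose, 5 fell) and surface genes (1 rose, 6 fell), and are absent from the rows of other AP-1 genes, other immediate-early genes, phosphatases and heat shock genes.

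Genes most like each member were taken by Pearson correlation of log2 CPM (prior count 2) over the 12 libraries among 8392 genes with a mean of at least 10 CPM. These values describe 12 points that share the stage difference and the libraries' depth. Egr1 was most like Tox (r = 0.96), Siae (0.95) and Egr2 (0.95), and Egr2 most like Med14 (0.99), Il21r (0.98) and Strbp (0.97). Nr4a1 was most like Dmwd (0.95), Dntt (0.94) and Cd24a (0.94), which was itself used to sort the stages. For Nr4a2 these were Myb (0.93), Osbpl8 (0.92) and Adam12 (0.91), and for Nr4a3 Cd5 (0.91), Dgkz (0.90) and Zfp330 (0.90). Egr3 was most like Uspl1 (0.92), Mpc1 (0.91) and Zfp628 (0.88), Junb most like Alg9 (0.93), Riox1 (0.91) and Tpp1 (0.90), and Fos, at these counts, most like Cep97 (0.84), Timm17b (0.83) and Ift172 (0.82).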

How the data were processed

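RNA-seq libraries of sorted thymic iNKT cells were made with the NuGEN Ovation Ultralow system from QIAGEN-purified RNA, per the labels' protocols. The authors deposited raw counts per Ensembl gene, 1 file for each of 12 libraries. The build was mm10 and the tools named were TopHat2, Bowtie2, bcl2fastq and DESeq, per the submitters' processing notes; versions, counter, annotation and strand were not given in the sources used here. Symbols, coordinates and exonic lengths came from GENCODE M21 (48312 of 48672 IDs matched), and promoters from RefSeq. Chromatin accessibility data were not analysed here.

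Groups came from genotype and stage in the sample titles. Genes passing edgeR's filterByExpr (15704) entered 1 quasi-likelihood fit of all 12 libraries with robust dispersion (edgeR 4.0.16, R 4.3.3, TMM scaling, 1 mean per group, 8 residual degrees of freedom, common biological coefficient of variation 0.835). All 7 contrasts used the two-sided F-test with Benjamini-Hochberg adjustment over all tested genes at 0.05; SE was taken as the absolute log2 fold change over the root of F. DESeq2 1.42.0 was an alternative, and other alternatives changed scaling, filter, dispersion, samples, pairing, Sp100 handling or left out a library. The same fit was also run on simulated counts, and its recovery rates are not given here. No 2 libraries of a group agreed within sampling noise (chi-square per gene 27.6 to 170). Counts of 0 allow 3 counts, and floors cover counting error only, since libraries carry no molecular identifiers.

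The members and lists were chosen with earlier results of these data known. Named were all 8 members; from each list up to 2 risen and 2 fallen genes with the lowest p, or else the gene with the highest mean level; and for each member the 3 genes most like it. Fallen or risen list genes named without values, the cell markers, Hspa1a, Hspa1b and the genes named as called by DESeq2 are outside this rule and were chosen after their values were seen.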

Additional observations from a re-analysis of the deposited data

How the results depend on the processing

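Over both genotypes, the falls of Egr1, Egr2 and Nr4a1 passed in all 21 alternatives, with log2 fold changes from -1.69 to -2.40, -2.02 to -2.47 and -3.47 to -4.14. The number of members called was 4 there and stayed between 3 and 5 with a library left out. In WT the 3 calls became 5 with DESeq2 and 1 to 3 with a library left out (1 without ST0 replicate 1 or ST1 replicate 1 or 2). In Bcl6KO the 3 calls became 0 with the Sp100 share as a covariate, 0 with only the 2 groups compared, and 0 to 3 with a library left out (0 without ST1 replicate 1 or 3). Whether replicate numbers mark shared pools is not in the labels, and the correlations do not settle it. Deviations from group means correlated at -0.08 to 0.12 between libraries of the same number and at -0.23 to 0.16 between the rest. Between the stages of WT, same-number pairs gave 0.00071, 0.12 and 0.052, and the rest -0.11 to 0.049. In Bcl6KO same-number pairs gave 0.045, 0.030 and 0.022, and the rest -0.036 to 0.0015. With a replicate block 2, 2 and 4 members were called in WT, in Bcl6KO and over both genotypes; Nr4a1 in WT (adjusted p = 0.0674) and Egr2 in Bcl6KO (adjusted p = 0.0731) were lost. No member was called between genotypes under any alternative.

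Direction changed only for values that had not passed. For Bcl6KO against WT at stage 1, Egr1 gave 0.015 with DESeq2's size factors in edgeR and 0.015 with DESeq2, 0.0070 with only the 2 groups, 0.0050 without Sp100 and 0.065 with a replicate block. Junb there gave -0.0054 without scaling and -0.23 with the Sp100 covariate. At stage 0 Nr4a2 gave -0.18 without scaling and -0.54 with a replicate block. Averaged over stages Egr2 gave -0.047 without scaling and -0.030 with the Sp100 covariate, and Egr3 -0.10 without scaling. Egr3 between stages, averaged, gave 0.11 without scaling. Leaving out a library gave ranges across 0. Between stages these were -0.61 to 1.89 (Junb in Bcl6KO), -0.81 to 0.44 (Junb, averaged) and -0.39 to 0.12 (Egr3, averaged). Between genotypes at stage 0 they were -0.45 to 0.12 (Egr1), -0.34 to 0.017 (Egr2), -0.51 to 0.58 (Nr4a1) and -1.003 to 1.23 (Nr4a2). At stage 1 they were -0.21 to 0.41 (Egr1), -4.35 to 2.45 (Nr4a2) and -0.73 to 0.42 (Junb). Averaged over stages they were -0.23 to 0.11 (Egr1), -0.017 to 0.41 (Egr3) and -1.98 to 1.42 (Nr4a2), and for the difference between stages -0.11 to 0.61 (Egr1) and -4.73 to 2.07 (Nr4a2). The causes were not tested.

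Genes called over the whole table depended on the setting. Between stages, averaged, 544 became 830 without the low-count filter, 1495 with DESeq2 and 123 with the Sp100 covariate. In WT 68 became 142, 376 and 42, and in Bcl6KO 106 became 309, 1309 and 18, with 172 without scaling (150 higher, against 66 of 106), 39 with a replicate block and 3 with only the 2 groups. At stage 0 the 3 calls between genotypes became 950 with DESeq2. Leaving scaling out shifted the median of all genes by 0.49 in Bcl6KO between stages, 0.29 averaged, and by -0.46 and -0.26 between genotypes at stage 0 and averaged; averaged between stages it gave 419 higher and 129 lower genes, against 321 and 223. With 1 library left out the calls ran from 216 (without WT ST1 replicate 1) to 777 (without Bcl6KO ST0 replicate 1) averaged, and 8 of 12 libraries moved them over 1.5 times. They ran from 21 (WT ST1 replicate 1) to 141 (WT ST0 replicate 2) in WT, with 7 such libraries, and from 11 (Bcl6KO ST1 replicate 3) to 325 (Bcl6KO ST0 replicate 1) in Bcl6KO, with 9. Between genotypes they ran from 0 to 146 at stage 0 and from 0 to 68 averaged, both highest without Bcl6KO ST0 replicate 1. The background percentages move with these counts. Fos, with at most 23 counts in a library, allowed no fold.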

Other observations

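A few early genes outside the list were high in single Bcl6KO ST0 libraries; they were picked after their values were seen and are given as values. Fosb, a relative of Fos that did not pass the filter on low counts, stood at 202 CPM in replicate 3 and at 0.200 and 0.569 CPM in replicates 1 and 2. In replicate 2, Csrnp1 stood at 309 CPM against 7.79 and 6.30 in the others. Arc stood there at 85.3 CPM against 5.99 and 0, Jund at 179 against 25.4 and 14.4, and Nfkbiz at 216 against 23.6 and 22.2. Replicate 2 was also the highest of its group for Nr4a1, Nr4a2, Nr4a3 and Fos and the lowest for Egr1, Egr2, Egr3 and Junb. Of all libraries it had the fewest genes detected (14860), the largest Sp100 share (23.9%) and the lowest TMM factor (0.660). Its summed fibroblast markers were the highest too (51.8 CPM). The part of these library traits in its values was not tested. Other genes cover 52.6% of the exonic bases of Jund and 6.45% of those of Csrnp1.

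Ier5 and Ier2, a pair of related immediate-early genes also picked after their values were seen, read higher in every stage 1 library than in every stage 0 library of the same genotype, as 12.5% of all genes tested did in WT and 11.8% in Bcl6KO. Ier5 read 42.7 to 102 CPM in WT ST1 and 36.2 to 80.8 CPM in Bcl6KO ST1, against 0.197 to 26.6 CPM in WT ST0 and 0 to 13.8 CPM in Bcl6KO ST0. Ier2 read 16.5 to 23.1 CPM in WT ST1 and 3.79 to 36.4 CPM in Bcl6KO ST1, against 3.54 to 13.6 CPM in WT ST0 and 0 to 3.19 CPM in Bcl6KO ST0. Over both genotypes neither passed edgeR's test, and DESeq2 called Ier2 (Ier5 log2 3.19, SE 1.19, adjusted p = 0.166; Ier2 2.33, SE 0.88, adjusted p = 0.177).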
